A study of Mus musculus with 8 samples.

Results

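The subject is a set of 10 genes of the NRF2 pathway and of antioxidant defence in mouse liver: Nfe2l2, Keap1, Gclc, Gclm, Nqo1, Hmox1, Txnrd1, Srxn1, Cat and Gpx1. They were picked by gene symbol, with earlier results of these data known, and glutathione transferase genes were not included. They are 10 of the 22013 genes in the deposited table, and all 10 were among the 12207 genes with enough counts to be tested. Bulk RNA-seq of mouse liver was available as 4 libraries of a resmetirom group and 4 libraries of a control group. Resmetirom is an agonist of the thyroid hormone receptor beta that acts mainly in the liver.

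The resmetirom mice were from a diet-induced model of metabolic dysfunction-associated steatohepatitis (MASH). That model used 12 weeks of a diet with fructose, palmitate and cholesterol (FPC), and resmetirom at 5 mg/kg/day was injected intraperitoneally for 8 weeks, starting after the first 4 weeks of that diet. The vehicle named for the study was Tween-80 at 0.4% with CMC-Na at 0.5%. Neither a diet nor a vehicle is stated for the control libraries, so an effect of the drug cannot be told apart from any difference in diet or injection. The sources used here give no strain, sex or age. Nor do the labels say whether each library is a separate animal, so the tests below measure only how far these libraries differ among themselves.

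NRF2, the protein made from Nfe2l2, is a transcription factor that KEAP1 holds at low levels by handing it to a ubiquitin ligase. Electrophiles and oxidants modify cysteines of KEAP1, NRF2 then accumulates, pairs with a small MAF protein and binds antioxidant response elements near its target genes. In liver the pathway is known for controlling glutathione synthesis, quinone reduction, the thioredoxin system, NADPH supply and the export of conjugates. Catalase and glutathione peroxidase 1 remove hydrogen peroxide and are abundant liver enzymes that are less dependent on NRF2.

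The promoters were searched for the letters that NRF2 and the small MAF proteins are known to bind. RefSeq promoters on the build GRCm38.p6 matched 8 of the 10 genes, with 10 promoters of 300 bases in all, since Txnrd1 has 3 annotated starts. Hmox1 and Gclc had no entry. The core of the antioxidant response element was searched on both strands as TGACNNNGC and as TGAGNNNGC, where N is any base. A match was found in 4 of the 10 promoters, of 4 genes, while 27.8% of all 32851 promoters of this length held one of these forms, with 12.4% for TGACNNNGC and 17.6% for TGAGNNNGC. The 4 promoters with a match follow, 5′ to 3′ in the direction of the gene, with the matching bases in capitals. Srxn1 is at chr2:152105274-152105573 on the plus strand, Gclm at chr3:122245307-122245606 on the plus strand, the second start of Txnrd1 at chr10:82858956-82859255 on the plus strand, and Nfe2l2 at chr2:75704614-75704913 on the minus strand.
Srxn1: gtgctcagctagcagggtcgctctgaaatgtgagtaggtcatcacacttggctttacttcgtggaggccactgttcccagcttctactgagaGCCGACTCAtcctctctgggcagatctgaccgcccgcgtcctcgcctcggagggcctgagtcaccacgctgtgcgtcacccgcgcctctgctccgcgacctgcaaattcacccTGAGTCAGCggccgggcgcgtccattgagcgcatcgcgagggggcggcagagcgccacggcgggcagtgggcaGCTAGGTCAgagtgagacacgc
Gclm: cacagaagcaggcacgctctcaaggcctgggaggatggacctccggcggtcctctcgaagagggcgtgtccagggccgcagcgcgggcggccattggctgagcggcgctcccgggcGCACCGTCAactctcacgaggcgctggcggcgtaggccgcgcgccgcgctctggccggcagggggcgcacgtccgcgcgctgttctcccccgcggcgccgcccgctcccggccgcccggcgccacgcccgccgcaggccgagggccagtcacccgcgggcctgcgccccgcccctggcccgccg
Txnrd1, second start: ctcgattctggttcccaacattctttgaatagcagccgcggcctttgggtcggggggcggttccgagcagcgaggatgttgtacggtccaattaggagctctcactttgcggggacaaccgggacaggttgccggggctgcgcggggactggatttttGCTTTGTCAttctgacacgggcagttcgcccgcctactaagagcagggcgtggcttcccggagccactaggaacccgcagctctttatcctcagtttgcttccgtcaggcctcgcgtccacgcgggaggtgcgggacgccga
Nfe2l2: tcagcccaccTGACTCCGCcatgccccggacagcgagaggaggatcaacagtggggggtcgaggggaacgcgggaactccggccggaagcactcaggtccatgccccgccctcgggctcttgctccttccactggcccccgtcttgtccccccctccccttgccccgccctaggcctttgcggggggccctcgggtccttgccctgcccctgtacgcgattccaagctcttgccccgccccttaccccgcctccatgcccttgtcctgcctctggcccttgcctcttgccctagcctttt

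Srxn1 was the member with 3 matches, beginning at -158, -45 and 28 from its start site, and the match at -45 lay on the gene's own strand. The match of Gclm began at -134 and that of Txnrd1 at -92, each on the opposite strand. The match of Nfe2l2 began at -240 on its own strand. The promoters of Keap1, Nqo1, Cat and Gpx1 and the other 2 starts of Txnrd1 held neither form in these windows. A match is a description of the letters and not evidence of a bound site.

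**Figure D1:**
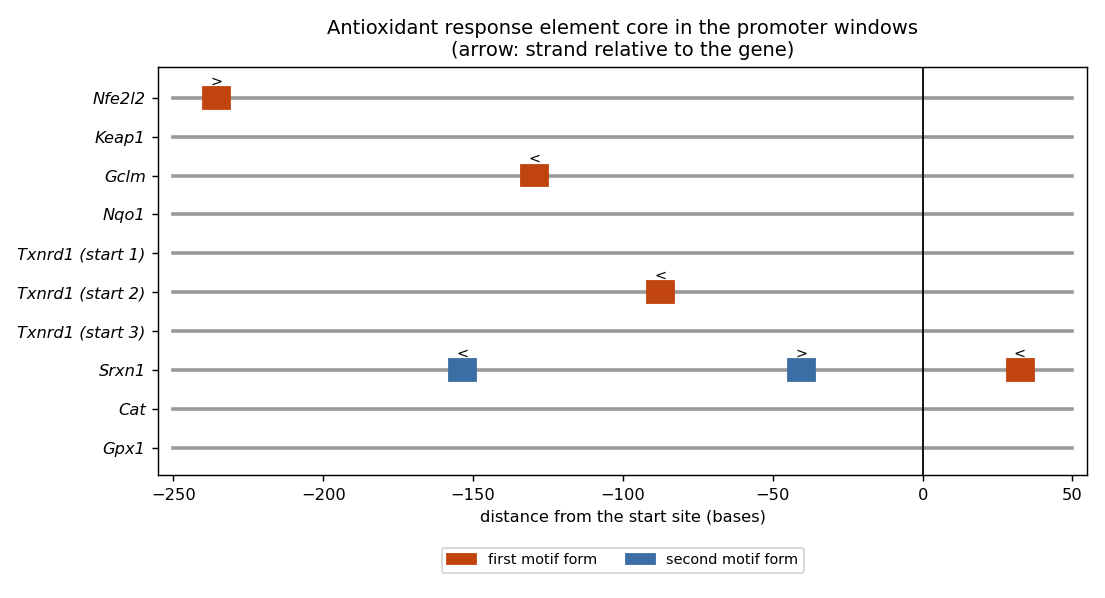
Position of the motif matches in the 10 promoters, with distance from the annotated start site in bases on the horizontal axis and 1 row per promoter. Matches are marked by form and strand, and 4 of the 10 rows hold at least 1, with 3 of them in Srxn1.

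Depth and library structure were as follows. Total counts were 16787561 to 18682190 in the resmetirom libraries and 17436759 to 19887539 in the control libraries, with 13902 to 14442 genes holding at least 1 count in each library. Levels are CPM, counts relative to the library total, scaled with TMM factors, which are edgeR's correction for differences in RNA composition. These factors were 0.8667, 0.8042 and 0.8794 in resmetirom replicates 2, 3 and 4, but 1.056 in resmetirom replicate 1, against 1.08 to 1.161 in the control libraries. The first principal component (45.6% of the variance) separated the groups, with scores of -27.9 to -16.9 in resmetirom libraries and 17.6 to 24.3 in control libraries. On the second component (20.7%), resmetirom replicate 3 (-20.9) and control replicate 1 (-21.6) lay at the low end, resmetirom replicate 1 (23.1) at the high end, and the other 5 libraries between -6.86 and 10.6. The labels name an MGI and an Illumina instrument without assigning libraries to them.

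No member of the set was called between the groups. At a Benjamini-Hochberg adjusted p under 0.05 in edgeR's quasi-likelihood test, 0 of 10 members passed, while 560 of all 12207 genes did (4.59%), 317 of them higher and 243 of them lower in resmetirom livers (1.99% lower). At an unadjusted p under 0.05, 2 of the 10 members passed, Gclm and Nfe2l2, both lower in resmetirom livers, beside 8.36% of all genes that were lower at that limit. That count was 0 without resmetirom replicate 1 or 2 and 3 without resmetirom replicate 4. DESeq2 gave 0 calls with 1 member at an unadjusted p under 0.05, and limma-voom gave 0 calls with 2. In TMM-scaled CPM the groups overlapped for all 10 members. On that scale 11.8% of all tested genes had groups that did not overlap in either direction, 5.5% with every resmetirom library below every control library. The median log2 fold change was 0.0008 over the members and -0.0043 over all tested genes. With 1 library left out, the members' median ran from -0.114, without resmetirom replicate 3, to 0.035, without resmetirom replicate 4.

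**Figure D2:**
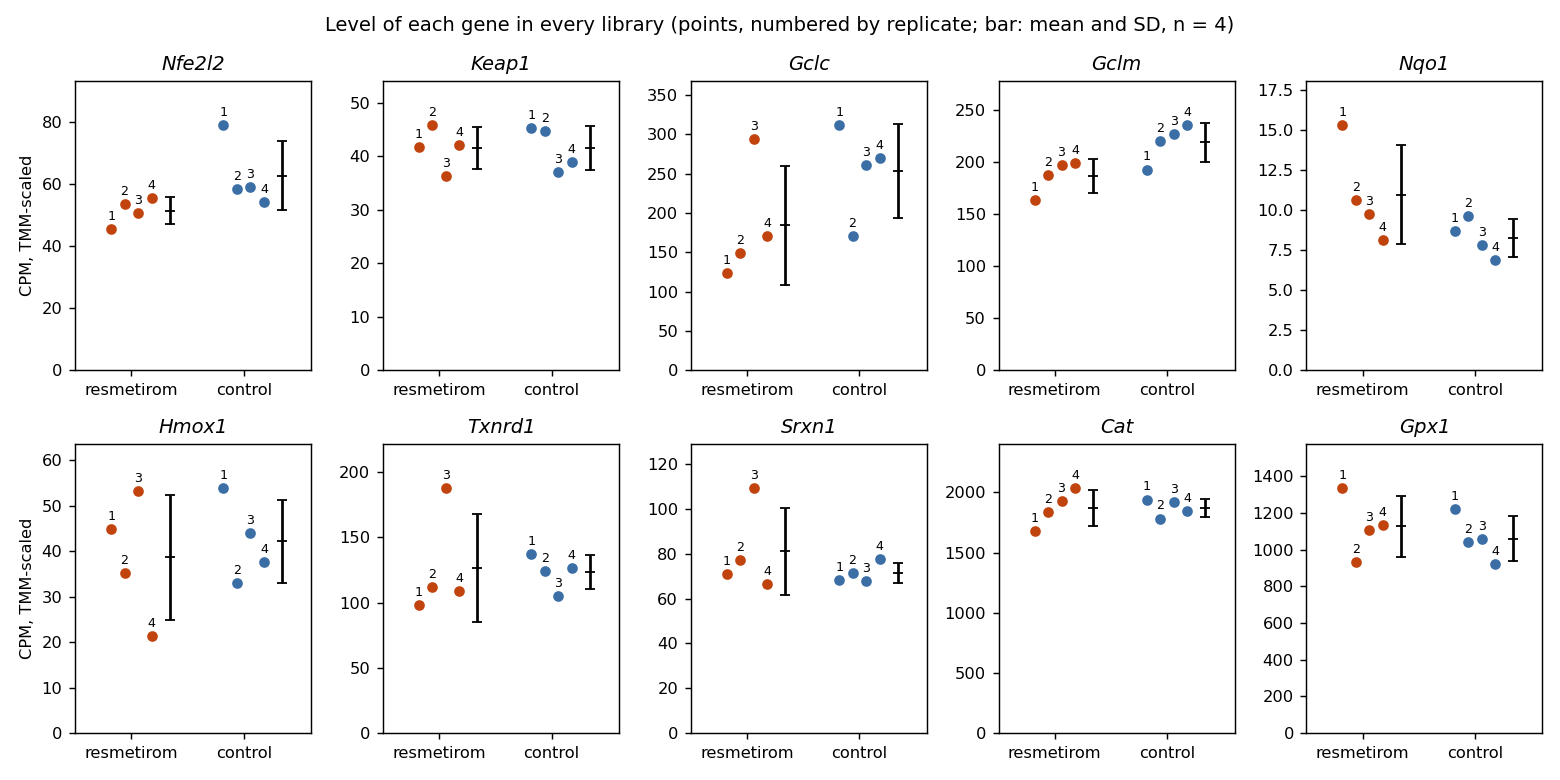
Levels of the 10 members in each library, in TMM-scaled CPM, with 1 panel per gene, points for libraries and bars for group means. Each panel shows the resmetirom group beside the control group, and in every panel the points of the groups overlap.

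Levels can be compared between the genes only per length, for which the length-corrected TPM values deposited by the authors serve. Gpx1 had the highest mean, 1698 ± 543 TPM in resmetirom livers and 2194 ± 214 TPM in control livers, followed by Cat with 944 ± 114 TPM and 1336 ± 76.4 TPM (SD, n = 4 each). These enzymes of hydrogen peroxide removal stood far above the rest of the set, and their ranges did not overlap within a group. Gclc averaged 68.5 ± 18.4 TPM in resmetirom livers and 138 ± 32.6 TPM in control livers, Gclm 60.5 ± 9.89 TPM and 103 ± 12.7 TPM, and Txnrd1 50.1 ± 10.04 TPM and 70.4 ± 6.66 TPM. The ranges of Gclc and Gclm overlapped within each group, and that of Txnrd1 overlapped with them in resmetirom livers but lay below both in control livers. Srxn1, Hmox1 and Nfe2l2 followed with means of 27.3 to 37.5 TPM in resmetirom livers and 47.0 to 49.95 TPM in control livers, and the ranges of these 3 overlapped within each group. Keap1 averaged 17.3 ± 3.81 TPM in resmetirom livers and 23.97 ± 1.61 TPM in control livers. Nqo1 had the lowest mean, with 9.69 ± 4.63 TPM in resmetirom livers and 9.88 ± 1.02 TPM in control livers.

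Nfe2l2, which encodes NRF2 itself (ENSMUSG00000015839, chr2:75675513-75704641, minus strand), had 45.6, 53.8, 50.8 and 55.5 CPM in the resmetirom libraries, against 79.1, 58.3, 59.0 and 54.4 CPM in the control libraries. Of the 4 resmetirom libraries, 3 lay below every control library, and control replicate 1 was well above the rest of its group. Resmetirom livers had 82.0% of the level of control livers, with an unadjusted 95% interval of 67.9 to 98.9% (log2 fold change -0.29, SE 0.12, edgeR adjusted p = 0.248). It did not pass the threshold, and without control replicate 1 the log2 fold change of Nfe2l2 was -0.16. Keap1, the sensor that restrains NRF2 (ENSMUSG00000003308, chr9:21229730-21239361, minus strand), had 41.7, 45.8, 36.3 and 42.1 CPM in the resmetirom libraries, against 45.2, 44.7, 37.0 and 38.9 CPM in the control libraries. The groups lay on top of each other. Its level in resmetirom livers was 100% of that in control livers, with an interval of 85.1 to 118% (edgeR adjusted p = 0.999).

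The ratio of Nfe2l2 to Keap1 within a library does not depend on how libraries are scaled, and it was computed after the values of both genes had been seen. In TPM it was 1.41, 1.52, 1.81 and 1.72 in the resmetirom libraries, against 2.27, 1.68, 2.08 and 1.83 in the control libraries. The groups overlapped, with means of 1.61 ± 0.181 and 1.97 ± 0.262 (SD, n = 4 each). The difference of the log2 ratios was -0.28, with a 2-sided exact permutation p = 0.114 and an adjusted value of 0.228 over the 2 ratios tested. Gm16754 is annotated antisense to Keap1, and their reads cannot be told apart if strand was not used. The small nuclear RNA gene Gm24996 overlaps Nfe2l2 on the same strand.

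Gclc and Gclm encode the catalytic and the modifier subunit of glutamate-cysteine ligase, the rate-limiting enzyme of glutathione synthesis. Gclc (ENSMUSG00000032350, chr9:77754535-77794485, plus strand) had 124, 149, 294 and 171 CPM in the resmetirom libraries, against 312, 170, 261 and 269 CPM in the control libraries. Resmetirom replicate 3 stood near the top of the control range while replicates 1 and 2 were below every control library, and control replicate 2 stood with the resmetirom libraries. On average resmetirom livers held 72.9% of the level of control livers with a wide interval of 45.2 to 117% (log2 fold change -0.46, SE 0.30, edgeR adjusted p = 0.512). Without resmetirom replicate 3 the log2 fold change of Gclc was -0.78 with an edgeR adjusted p of 0.0604, which also did not pass, and over all 19 alternatives its adjusted p ranged from 0.00704 to 0.702.

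Gclm (ENSMUSG00000028124, chr3:122245557-122270732, plus strand) varied far less. It had 164, 188, 197 and 199 CPM in the resmetirom libraries, against 193, 221, 227 and 236 CPM in the control libraries. Of the resmetirom libraries, 2 lay below every control library, and the other 2 overlapped with control replicate 1 only. Its level in resmetirom livers came to 85.3% of that in control livers with an interval of 73.9 to 98.4% (log2 fold change -0.23, SE 0.09, edgeR adjusted p = 0.224). Gclm overlaps the pseudogene Gm6061 on its strand and Gm17494 on the other. The ratio of the subunits, Gclc to Gclm in TPM, was 0.826, 1.05, 1.78 and 0.9996 in the resmetirom libraries, against 1.90, 0.870, 1.33 and 1.36 in the control libraries. It was also computed after the values had been seen, and did not separate the groups (log2 difference -0.24, 2-sided exact permutation p = 0.457, adjusted 0.457).

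Nqo1 and Hmox1 are the pathway's classical inducible enzymes, reducing quinones and breaking down heme. Nqo1 (ENSMUSG00000003849, chr8:107388225-107403206, minus strand) had 15.3, 10.7, 9.8 and 8.1 CPM in the resmetirom libraries, against 8.7, 9.6, 7.8 and 6.9 CPM in the control libraries. It was the member with the highest fold change, and 3 of the 4 resmetirom libraries lay above every control library. The mean of resmetirom livers was 133% of that of control livers, with an interval of 98.5 to 180% (log2 fold change 0.41, SE 0.20, edgeR adjusted p = 0.314). Without resmetirom replicate 1 the log2 fold change of Nqo1 was 0.20. On the TPM scales the sign of its change was negative, and it was called under none of the 19 alternatives.

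Hmox1 (ENSMUSG00000005413, chr8:75093621-75100589, plus strand) had 44.9, 35.2, 53.3 and 21.3 CPM in the resmetirom libraries, against 54.0, 32.9, 44.0 and 37.7 CPM in the control libraries. Resmetirom replicate 4 was below every other library, and the remaining 7 mixed. Resmetirom livers were at 91.8% of control livers with an interval of 60.2 to 140% (log2 fold change -0.12, SE 0.27, edgeR adjusted p = 0.876), and the sign turned without resmetirom replicate 4 (0.08) or control replicate 1 (0.02). Kupffer cells, the macrophages of the liver, are a known site of Hmox1 expression. The summed level of 14 macrophage markers was 1166, 1000, 600 and 445 CPM in resmetirom replicates 1 to 4, against 713 to 1047 CPM in the control libraries, so resmetirom replicate 4 was lowest for both, but resmetirom replicate 3, second lowest for the markers, was highest of its group for Hmox1. Its part in the level of Hmox1 was not tested, and in bulk tissue fewer cells of a type and less RNA per cell cannot be told apart.

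Txnrd1 encodes the cytosolic thioredoxin reductase, and Srxn1 encodes sulfiredoxin, which repairs over-oxidised peroxiredoxins. Txnrd1 (ENSMUSG00000020250, chr10:82833951-82897712, plus strand) had 97.8, 112, 188 and 109 CPM in the resmetirom libraries, against 137, 124, 105 and 127 CPM in the control libraries. Resmetirom replicate 3 was the highest of all 8 libraries, and the other libraries overlapped. Across all libraries, resmetirom livers were at 103% of control livers with an interval of 76.3 to 138% (log2 fold change 0.04, SE 0.19, edgeR adjusted p = 0.950). Without resmetirom replicate 3, the log2 fold change of Txnrd1 was -0.21. Eid3 lies within Txnrd1 on the same strand and Gm38560 and Gm47073 lie on the other.

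Srxn1 (ENSMUSG00000032802, chr2:152105516-152111376, plus strand), the gene with 3 motif matches in its promoter, had 71.1, 77.2, 109 and 66.5 CPM in the resmetirom libraries, against 68.4, 71.4, 67.8 and 77.5 CPM in the control libraries. Here too resmetirom replicate 3 was the highest of all libraries, while the other 7 lay within a narrow band. Srxn1 in resmetirom livers was at 114% of control livers with an interval of 91.7 to 141% (log2 fold change 0.18, SE 0.14, edgeR adjusted p = 0.576), and the log2 fold change was 0.006 without resmetirom replicate 3.

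Cat encodes catalase, the peroxisomal enzyme that breaks down hydrogen peroxide. It had 1683, 1839, 1933 and 2039 CPM in the resmetirom libraries, against 1942, 1783, 1920 and 1843 CPM in the control libraries. Cat (ENSMUSG00000027187, chr2:103453849-103485160, minus strand) was the tightest estimate of the set, at 100% of control livers with an interval of 87.5 to 114% (log2 fold change 0.00, SE 0.09, edgeR adjusted p = 0.998). Gpx1, the main cytosolic glutathione peroxidase and a selenoprotein (ENSMUSG00000063856, chr9:108338903-108340343, plus strand), had 1338, 933, 1108 and 1135 CPM in the resmetirom libraries, against 1220, 1040, 1060 and 923 CPM in the control libraries. The groups overlapped. The level in resmetirom livers was 106% of that in control livers with an interval of 88.7 to 128% (log2 fold change 0.09, SE 0.12, edgeR adjusted p = 0.781).

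How much the members varied within a group differed from gene to gene. The coefficient of variation over the 4 libraries of a group was 41.1% in resmetirom livers and 23.5% in control livers for Gclc, 35.5% and 21.6% for Hmox1, and 32.6% and 10.7% for Txnrd1. For Srxn1 it was 23.9% in resmetirom livers and 6.21% in control livers. Nqo1 (28.1% in resmetirom livers and 14.1% in control livers), Gpx1 (14.7% and 11.5%), Cat (8.06% and 3.89%) and Gclm (8.72% and 8.42%) also varied more in resmetirom livers. Nfe2l2 (8.43% in resmetirom livers and 17.7% in control livers) and Keap1 (9.43% and 9.96%) varied less there. No test of these differences in spread was run. Nor was the share of all tested genes that varied more in resmetirom livers computed, so this order is no trait of the members. Over all tested genes, correlations between libraries were 0.974 to 0.985 within the resmetirom group and 0.98 to 0.992 within the control group. Resmetirom replicate 3 was the highest of its group for 4 members (Gclc, Hmox1, Txnrd1 and Srxn1), resmetirom replicate 1 the lowest of its group for 5, and control replicate 1 the highest of its group for 7. The shares of all tested genes with these orders were not computed, so the counts are no trait of the members. Gclc and Txnrd1 were at least 1.5 times higher in resmetirom replicate 3 than in each of the other 3 resmetirom libraries, which held for 2.56% of all tested genes. That library is named here because of the members' own values, so the share is no test. Resmetirom replicate 1 stood above the rest of its group by that factor for more genes, 4.87% of those tested, with 0 members among them. Members also stood below the rest of a group by that factor. They were Hmox1 in resmetirom replicate 4, beside 4.07% of all tested genes, and Gclc in control replicate 2, beside 2.43%.

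**Figure D3:**
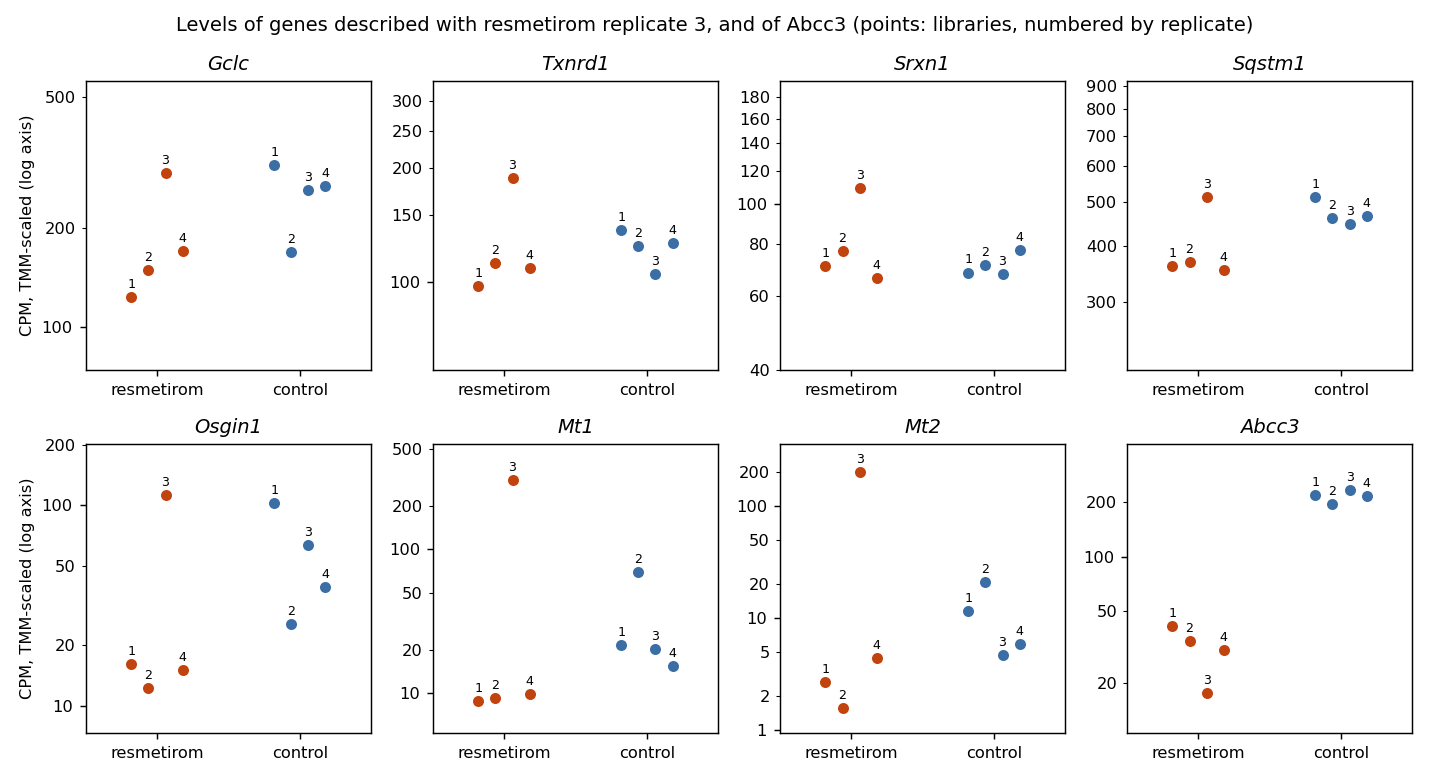
Levels in TMM-scaled CPM on a log axis for 3 members, 4 genes of related lists that were picked after their values were seen, and Abcc3, with points for libraries numbered by replicate and resmetirom left of control. Resmetirom replicate 3 is the highest of its group in 7 panels, whose genes were all picked with that order already seen, and the lowest in the panel of Abcc3. Among all 10 members it was the highest of its group for 4.

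The call for several members depended on how the libraries were scaled. With total counts as the only scaling, the median of all tested genes moved to -0.31 on the log2 scale and that of the members to -0.31. Then 3 members were called lower in resmetirom livers, beside 16.1% of all tested genes: Nfe2l2 (-0.60, edgeR adjusted p = 0.00862), Gclm (-0.55, edgeR adjusted p = 0.00703) and Gclc (-0.81, edgeR adjusted p = 0.0442). On the log2(TPM + 1) scale with limma, the median was -0.41 over all tested genes and -0.50 over the members. On that scale 6 members were called lower, beside 38% of all tested genes: Gclc (-0.998), Gclm (-0.76), Nfe2l2 (-0.76), Cat (-0.51), Txnrd1 (-0.50) and Keap1 (-0.47). Relative to the median of all tested genes, 4 of the 10 members lay below it with TMM factors, 5 with total counts, 8 on the log2(TPM + 1) scale and 6 on the log2(TPM + 0.1) scale, where the medians were -0.51 over the members and -0.50 over all tested genes.

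The authors' deposited table gave 5 members as lower in resmetirom livers at an adjusted p under 0.05 and 0 as higher, beside 32.4% of all genes with counts that it gave as lower. Its log2 fold changes are those of the TPM means, so they restate the TPM scale and are no separate estimate. In the authors' deposited table the log2 fold changes were -1.01 for Gclc (adjusted p = 0.00123), -0.78 for Nfe2l2 (3.56e-05), -0.77 for Gclm (1.79e-09), -0.50 for Cat (8.19e-05) and -0.47 for Keap1 (0.0141). The median log2 fold change of the authors' deposited table over the 12207 genes tested here was -0.49, close to its values for Cat and Keap1.

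**Figure D4:**
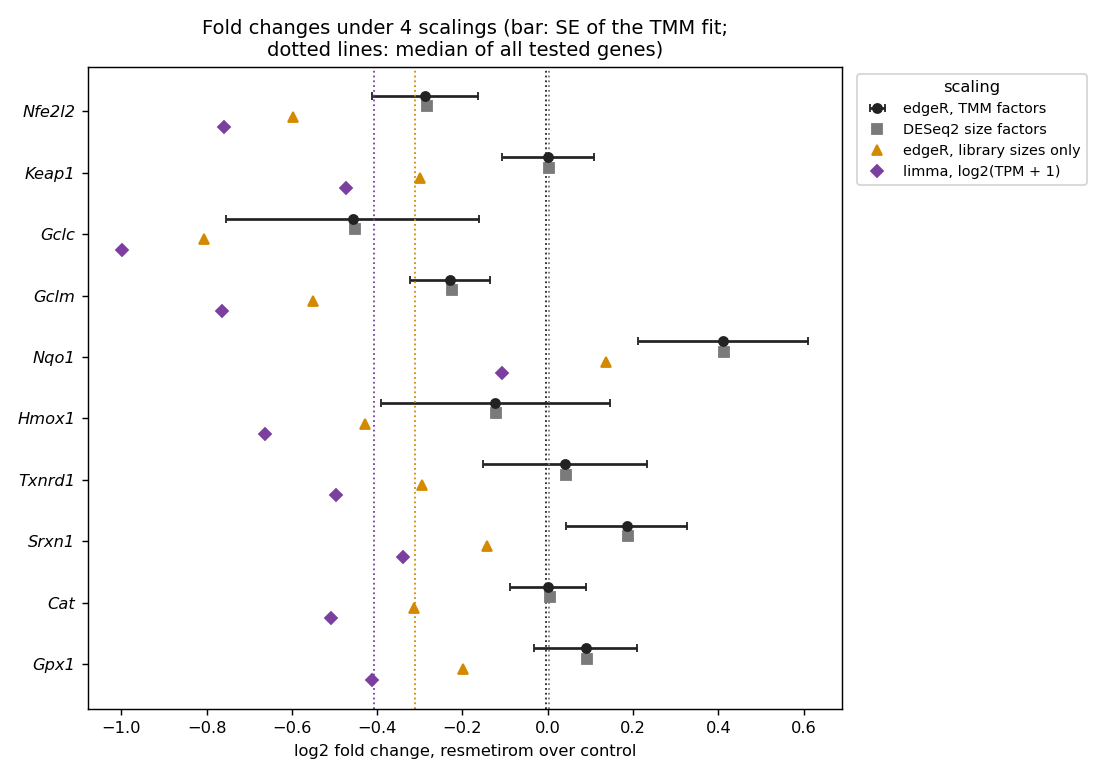
Log2 fold changes of the 10 members, resmetirom over control, under 4 ways of scaling, with dotted lines at the median of all tested genes under each. With TMM factors the members lie around 0, and with total counts or TPM both the members and the median of all genes lie below 0, at -0.31 and -0.41 for all genes with total counts and on the log2(TPM + 1) scale.

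Other genes of the pathway and of related systems were examined as lists, described by counts against the 2.6% of all tested genes called higher and the 1.99% called lower. Some genes, such as Fth1, Prdx1 and Gpx4, are in more than 1 list, so the lists are not separate sets of genes. Among 11 other regulators of NRF2 (the ligase partners, small MAF proteins, BACH1, p62 and others), 0 were called (median 0.005 on the log2 scale). The one with the smallest p was Mafk, a small MAF partner, with 12.6 ± 2.79 CPM in resmetirom livers and 16.7 ± 1.92 CPM in control livers (edgeR adjusted p = 0.214, SD, n = 4 each). Mafk was called under 3 of the 19 alternatives.

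Among 24 tested genes of 26 that are described as further NRF2 targets, 1 rose and 3 fell, with a list median of -0.03. Abcc3, a basolateral exporter of conjugated bile acids and drugs, had 41.3, 34.2, 17.8 and 30.6 CPM in the resmetirom libraries, against 218, 195, 233 and 216 CPM in the control libraries. Every resmetirom library was far below every control library (log2 fold change -2.80, SE 0.22, edgeR adjusted p = 0.000128), and Abcc3 was called under all 19 alternatives. Abcc4, another exporter of that family, fell to 5.01 ± 1.73 CPM in resmetirom livers, against 9.97 ± 1.28 CPM in control livers (-0.99, SE 0.22, edgeR adjusted p = 0.0261), and lost its call in 6 of the 8 fits without 1 library, with adjusted p up to 0.0921.

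Me1, the malic enzyme that makes NADPH, rose to 225 ± 27.4 CPM in resmetirom livers, against 140 ± 16.6 CPM in control livers (0.68, SE 0.11, edgeR adjusted p = 0.00405). It was called in all 8 fits without 1 library but not with total counts as the scaling (edgeR adjusted p = 0.0657) or on the TPM scales (limma adjusted p = 0.35 on each). Ephx1, the microsomal epoxide hydrolase, fell to 249 ± 38.8 CPM in resmetirom livers, against 340 ± 25.5 CPM in control livers (-0.45, SE 0.11, edgeR adjusted p = 0.0471). Ephx1 is named after its values were seen, and it kept its call in 1 of the 8 fits without 1 library.

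**Figure D5:**
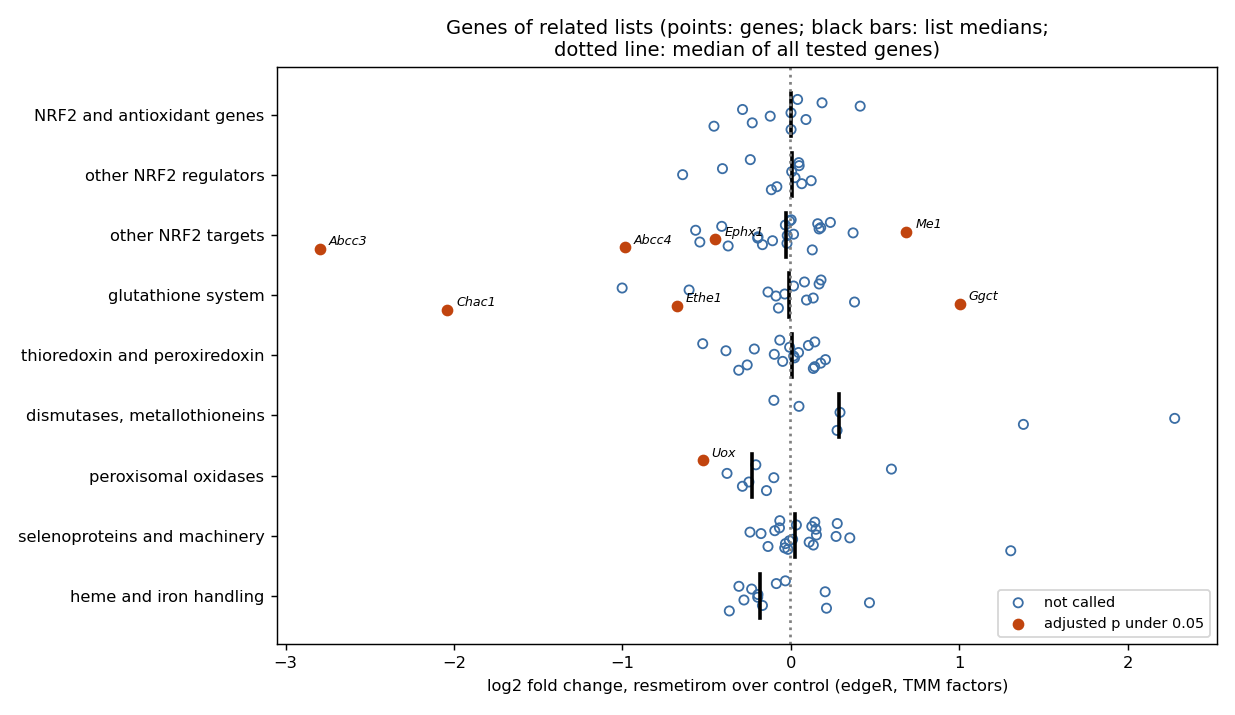
Log2 fold changes of single genes, resmetirom over control, in the 10 member genes and 8 related lists, with filled points for genes at an adjusted p under 0.05 and bars for list medians. The called genes are few and point both ways, with Abcc3 lowest at -2.80 and Ggct highest of the called genes at 1.003.

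Of 16 tested genes of 19 for glutathione synthesis, recycling and breakdown, 1 rose and 2 fell (median -0.01). Ggct, which cleaves gamma-glutamyl dipeptides in glutathione turnover, rose to 11.3 ± 1.24 CPM in resmetirom livers, against 5.61 ± 1.28 CPM in control livers (1.003, SE 0.18, edgeR adjusted p = 0.00721). Chac1, which degrades glutathione and is a stress response gene, fell to 0.896 ± 0.340 CPM in resmetirom livers, against 3.69 ± 1.70 CPM in control livers (-2.04, SE 0.44, edgeR adjusted p = 0.0200). Its counts were low, with 10 to 21 in the resmetirom libraries and 25 to 108 in the control libraries. The groups overlapped for Chac1, with resmetirom replicate 3 at 1.40 CPM and control replicate 2 at 1.21 CPM. Ethe1, a mitochondrial persulfide dioxygenase, fell to 14.0 ± 2.89 CPM in resmetirom livers, against 22.3 ± 3.63 CPM in control livers (-0.68, SE 0.16, edgeR adjusted p = 0.0364). The calls of Chac1 and Ethe1 were lost in 6 and 5 of the 8 fits without 1 library, and that of Ggct on the log2(TPM + 1) scale (limma adjusted p = 0.651).

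The remaining lists held few calls. Of 18 genes of the thioredoxin and peroxiredoxin system 0 were called (median 0.004), and the smallest p was that of Msra, a methionine sulfoxide reductase, with 115 ± 4.02 CPM in resmetirom livers and 142 ± 16.6 CPM in control livers (edgeR adjusted p = 0.0924). Msra was called under 3 of the 19 alternatives. Of 22 other selenoproteins and selenocysteine genes 0 were called (median 0.02). Dio1, the deiodinase that is a known target of thyroid hormone in liver, had the smallest p, with 128, 71.2, 134 and 123 CPM in the resmetirom libraries, against 71.8, 46.2, 35.9 and 31.0 CPM in the control libraries (log2 fold change 1.31, SE 0.30, edgeR adjusted p = 0.0550). For Dio1 the lowest resmetirom library met the highest control library. It was called higher under 9 of the 19 alternatives, with adjusted p of 1.9e-05 to 0.145, among them DESeq2, limma-voom (adjusted p = 0.0142), upper-quartile factors (edgeR adjusted p = 0.0482), total counts only and both TPM scales.

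Of 6 superoxide dismutase and metallothionein genes 0 were called. Their median was 0.28, but -0.03 with limma-voom and with the replicate block, -0.02 with total counts only, -0.50 from log2(TPM + 1). It was 0.004 without resmetirom replicate 3, where Mt1 and Mt2 turned to -1.78 and -1.92. The smallest p was that of Sod1, the cytosolic superoxide dismutase, with 552 ± 35.6 CPM in resmetirom livers and 451 ± 28.1 CPM in control livers (edgeR adjusted p = 0.0795). Sod1 was called under 1 of the 19 alternatives. Of 8 tested peroxisomal oxidases, the enzymes that make the hydrogen peroxide that catalase removes, 1 fell and 0 rose (median -0.23, with 7 of the 8 below 0). That gene was Uox, urate oxidase, which fell to 1303 ± 207 CPM in resmetirom livers, against 1873 ± 220 CPM in control livers (-0.52, SE 0.13, edgeR adjusted p = 0.0348), and lost its call in 7 of the 8 fits without 1 library. Of 12 genes of heme and iron handling around heme oxygenase 0 were called (median -0.18, 9 of the 12 below 0), led by Fech, the last enzyme of heme synthesis, with 139 ± 6.33 CPM in resmetirom livers and 169 ± 10.8 CPM in control livers (edgeR adjusted p = 0.0792). Fech was called under 4 of the 19 alternatives. With DESeq2, 1 heme and iron gene was called lower, 1 dismutase or metallothionein gene higher, and 1 oxidase in each direction. With total counts as the only scaling, 6 of the 8 oxidases, 6 of the 12 heme and iron genes, 6 of the 18 thioredoxin genes, 8 of the 24 further targets, 4 of the 16 glutathione genes, 3 of the 22 selenoprotein genes, 2 of the 11 regulators and 0 of the 6 dismutase and metallothionein genes were called lower, beside 16.1% of all tested genes.

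Markers of cell types gave the following levels beside these results. The sum of 7 hepatocyte markers was 91500 to 98730 CPM in the resmetirom libraries and 73920 to 84730 CPM in the control libraries (2-sided exact permutation p = 0.0286, the smallest that 4 against 4 libraries can give, adjusted 0.2 over 7 lists). The sum of 14 macrophage markers was 445 to 1166 CPM in resmetirom livers and 713 to 1047 CPM in control livers (exact permutation p = 0.743). Of these markers, 10 had a log2 fold change below 0 and 4 above, and 0 were called. Sums of 9 stellate cell markers were 377 to 659 CPM in resmetirom livers and 369 to 595 CPM in control livers (exact permutation p = 0.914). Most of that sum was Dcn, with 356 ± 104 CPM in resmetirom livers and 343 ± 81.4 CPM in control livers (SD, n = 4 each), and 8 of the 9 stellate markers had a log2 fold change below 0 (median -0.22). Most of the hepatocyte sum was Alb, with 73186 ± 2682 CPM in resmetirom livers and 58272 ± 3636 CPM in control livers. Sums of 7 endothelial markers were 216 to 315 CPM in resmetirom livers and 246 to 355 CPM in control livers (exact permutation p = 0.314). All 7 endothelial markers had a log2 fold change below 0, and 0 were called. Cholangiocyte markers summed to 40.5 to 71.7 CPM in resmetirom livers and 28.3 to 53.1 CPM in control livers (exact permutation p = 0.229). Most of that sum was Spp1, with 43.8 ± 11.8 CPM in resmetirom livers and 32.5 ± 9.98 CPM in control livers. Of the 5 tested cholangiocyte markers, 4 had a log2 fold change above 0 and 1 below. Lymphocyte markers summed to 3.06 to 11.4 CPM in resmetirom livers and 2.57 to 6.18 CPM in control livers (exact permutation p = 0.229). All 5 tested lymphocyte markers had a log2 fold change above 0, and 0 were called. Red blood cell markers summed to 137 to 343 CPM in resmetirom livers and 107 to 232 CPM in control livers (exact permutation p = 0.429).

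No marker was at 0 in all 8 libraries, and 3 single markers were called. Serpina1a of hepatocytes was higher in resmetirom livers (0.50, SE 0.11, edgeR adjusted p = 0.0167), though it belongs to a family of near-identical copies. Col3a1 of stellate cells and fibroblasts was lower (-1.06, SE 0.25, edgeR adjusted p = 0.0474), and so was Alas2 of red blood cells (-2.52, SE 0.29, edgeR adjusted p = 0.00158), while the 4 globin genes of that list were not called, with log2 fold changes of 0.74 to 0.93. The part of cell makeup in the levels of the 10 members was not tested.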

How the data were processed

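Poly(A)-selected liver RNA was sequenced in 8 libraries, 4 per group, on MGI or Illumina instruments, per the labels. The authors deposited whole-number counts for 22013 genes, 5994 of them with no counts, and TPM values, per the file headers. The authors also deposited a log2 fold change of TPM means per gene, and a p-value, raw and adjusted. Tools listed without roles in the submitters' processing notes are edgeR, DESeq2, StringTie 1.3.1, HISAT2 2.1.0, RSEM, Bowtie2 2.2.8 and fastp 0.18.0, with the build mm10. How strand was handled is not stated there, which matters for overlapping genes. Groups came from sample titles, columns named Ctrl were matched to the titles spelled crtl by number, and 0 columns were left unmatched.

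Counts were tested with edgeR 4.0.16 (R 4.3.3; filterByExpr, TMM factors, robust quasi-likelihood fits, 12207 genes) with Benjamini-Hochberg adjustment over all tested genes and a threshold of 0.05. Fold changes are resmetirom over control, and intervals are 95% and not adjusted. Total counts were 16787561 to 19887539 per library. TPM sums to a fixed total, while TMM factors rest on most genes being unchanged between libraries. A median of all genes near 0 with TMM factors is therefore no result. Which scaling is right for these libraries was not tested. Alternatives were DESeq2 1.42.0, limma 3.58.1 (voom, and limma-trend on log2(TPM + 1) and log2(TPM + 0.1)), other scalings and filters, a replicate block, and each library left out. Marker sums and ratios were compared by exact permutation tests over libraries.

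The members and the lists were chosen with earlier results of these data known. Named genes are all members, up to 3 called genes with the smallest p in each other list, or else the tested gene with the smallest p, and called markers. Ephx1, Osgin1, Mt1, Mt2 and Sqstm1 were named after their values were seen. Promoter sequences are from RefSeq, and gene coordinates are from GENCODE M21 on GRCm38, the assembly of mm10.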

Additional observations from a re-analysis of the deposited data

Results flagged for a closer look

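Single libraries were examined for a gap to their neighbours in 58 groups of 4 libraries, for the genes named by rule and the summed cell type markers. In 2 of these groups a value stood past the critical value of Dixon's test for 4 values, where chance gives about 5%. They were Txnrd1 in resmetirom replicate 3, at 188 CPM (gap over range 0.842), and Uox in control replicate 2, at 2202 CPM (0.910). Genes that were named because single libraries had been seen to stand out also passed that value, which is no test. They were, in resmetirom replicate 3, Sqstm1 at 512 CPM (0.908), Osgin1 at 112.5 CPM (0.960), Mt1 at 304 CPM (0.996) and Mt2 at 200.8 CPM (0.986), and, in control replicate 2, Mt1 at 70.1 CPM (0.886).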

How the results depend on the processing

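The members gave 0 calls with DESeq2, limma-voom, upper-quartile factors, both other filters, no robust estimation, no top 20 genes, the replicate block and each library left out, but 3 with total counts as the only scaling and 6 on both TPM scales. Genes called in all were 560, and 909 with DESeq2, 2112 with total counts only, 4762 and 4721 from TPM with pseudocounts of 1 and 0.1, and 331 to 544 with 1 library left out, lowest without control replicate 4. The share of calls lower in resmetirom livers was 43.4%, and 92.9% with total counts only and 97.3% on both TPM scales. With signs turned relative to TMM factors, Keap1 was called at -0.47 and -0.49, Txnrd1 at -0.50 and -0.50, and Cat at -0.51 and -0.51 with pseudocounts of 1 and 0.1, where the median of all genes was -0.41 and -0.50. The replicate block gave 406 called genes and 0 members. Deviations from the group means had r of -0.34, 0.247, -0.234 and -0.118 between same-numbered libraries, and -0.248 to 0.384 between unlike-numbered ones. These values cannot decide whether the numbers pair samples, and the main fit assumed no pairing. With 4 libraries a group the intervals of Gclc, Hmox1 and Nqo1 are wide, and differences within them were not detectable here.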

Other observations

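A set of redox and metal response genes that are not members was high in resmetirom replicate 3 alone of its group, picked after the values were seen and so given as a description. Osgin1, an oxidative stress induced growth inhibitor and described NRF2 target, had 16.2, 12.2, 112.5 and 15.0 CPM in resmetirom replicates 1 to 4, against 102, 25.5, 63.2 and 39.3 CPM in control replicates 1 to 4. Apart from replicate 3, every resmetirom library was below every control library for Osgin1. The log2 fold change of Osgin1 was -0.57 (SE 0.89, edgeR adjusted p = 0.823), and -1.99 without resmetirom replicate 3 (edgeR adjusted p = 0.114). The metallothionein gene Mt1, which codes for a metal-binding protein, had 8.74, 9.16, 304 and 9.83 CPM in the resmetirom libraries, against 21.7, 70.1, 20.2 and 15.4 CPM in the control libraries. Mt2 had 2.65, 1.56, 200.8 and 4.34 CPM in the resmetirom libraries, against 11.5, 21.1, 4.63 and 5.78 CPM in the control libraries.

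Sqstm1, which codes for the p62 adaptor that binds KEAP1, had 361, 369, 512 and 354 CPM in the resmetirom libraries, against 513, 461, 447 and 465 CPM in the control libraries. Its log2 fold change was -0.24 (edgeR adjusted p = 0.332), and without resmetirom replicate 3 Sqstm1 was called lower at -0.38 (edgeR adjusted p = 0.0382, with 0.00331 to 0.607 over all 19 alternatives). Abcc3 did not follow this order, with its lowest level, 17.8 CPM, in resmetirom replicate 3. What sets that library apart was not tested.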
